A study of Mus musculus with 9 samples.

Results

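CISH and the SOCS proteins are a family of cytokine signalling inhibitors that is encoded in the mouse by Cish and by Socs1 to Socs7. All 8 genes were present among the 19517 genes of the deposited table, each found by its symbol. The family was chosen by a measured value. Cish was among the few genes called lower in the CAU group than in the UT group, and the other members were taken with it by name, with their values known. The values of Cish in CAU over UT are therefore a description, and no test of the family as a whole is given.

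Type I and type II cytokine receptors signal through JAK kinases, which phosphorylate STAT factors, and the STATs then switch on target genes. Several CISH and SOCS genes are such targets, so that the proteins act back on the receptor that induced them. Each member has an SH2 domain that binds phosphotyrosine and a SOCS box that recruits elongins and a cullin ubiquitin ligase. In the ovary, prolactin acts through STAT5 in luteal cells, and leukocytes use the same proteins downstream of interleukins and interferons.

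RNA-seq libraries were made from ovaries of female BALB/c nude mice bearing tumours of the human breast cancer line MDA-MB-231, with 3 libraries in each of 3 groups. The UT mice had no treatment, the CTX mice had cyclophosphamide, an alkylating drug, and the CAU mice received the algal indole alkaloid caulerpin. All groups carried the tumour, and the CAU labels do not say whether cyclophosphamide was given as well. Nude mice have no functional thymus, and so few mature T cells, but keep NK cells, B cells and macrophages. Neither age, dose nor time was given in the sources used here. By its title the study is about ovarian dysfunction that cyclophosphamide brings about, so the question put to the family is how its members differed with the drug and in the caulerpin group.

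The table used here holds only the authors' comparisons between groups per gene, computed with DESeq2, namely the log2 fold change, its p-value and its adjusted p. The values of single libraries and their depth are not known here, so whether the groups overlap was not examined. Beside a log2 fold change stands its standard error (SE), as implied by the p-value of the gene. A gene is called higher or lower where its adjusted p is under 0.05. Columns name a pair of groups, and the later-named group was taken as the numerator. With that reading the p53 target Cdkn1a was at 1.99 (SE 0.32) in CTX over UT by the authors' deposited table, and the opposite reading would turn every sign given here. No label says that the replicates of a group came from separate mice, so the spread behind the p-values may be technical. All 5 granulosa and all 4 oocyte markers had a measured fold change, with SEs between 0.12 and 0.52 in CTX over UT.

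Of the family, 2 members passed the threshold in any comparison, and they went opposite ways in CTX ovaries. Cish fell and Socs7 rose in CTX against UT. Cish was also lower in CAU than in UT, while Socs7 in CAU lay close to its UT level. Socs3, Socs1 and Socs6 had the same signs as Cish in all 3 comparisons but were not called in any. In CTX over UT Socs1 and Socs6 lay close to 0, at -0.0070 and -0.017. Socs2, Socs4 and Socs5 were not called in any comparison either.

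The RefSeq start windows of Cish and Socs3 carry the motif TTCNNNGAA, the palindrome to which STAT dimers are known to bind. They are shown because these are the members with the lowest log2 fold changes in CAU over UT. RefSeq windows of 300 bases, from 250 before to 50 after a start site (build GRCm38.p6), were found for 4 of the 8 members, namely Cish, Socs1, Socs3 and Socs4. For Cish, Socs1 and Socs4 that site is the 5′ end of the RefSeq gene, while for Socs3 it lies 970 bases inside the gene, so the Socs3 window does not cover the 5′ end of the gene. The motif reads the same on both strands, and overlapping matches were counted. Capitals mark the motif, and each sequence is given 5′ to 3′ on the strand of the gene.
Cish, chr9:107296654-107296683, plus strand: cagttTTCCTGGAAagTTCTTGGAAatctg
Socs3, chr11:117969502-117969530, minus strand: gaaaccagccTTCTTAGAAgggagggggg

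The Cish window held 2 copies of the motif, spaced 11 bases apart, the first of which begins at the first base of the RefSeq gene. In GENCODE M21 this stretch lies in the 5′ untranslated part of the longer Cish transcript. The Socs3 window held 1 copy, which begins 154 bases before the start site of its window but 816 bases after the 5′ end of the RefSeq gene. It lies 334 bases before the start of the main GENCODE transcript, in an intron of another GENCODE transcript, which starts further upstream, and in no exon. The windows of Socs1 and Socs4 held none. Among all 32851 RefSeq windows of this length, 8.30% held the motif at least 1 time and 0.457% at least 2 times. A match of letters is a description, not a binding site.

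Cish encodes CISH, an inhibitor that STAT5 induces downstream of growth hormone, prolactin, erythropoietin and IL-2 family receptors. The gene lies on chromosome 9, from 107296659 to 107302784 on the plus strand, and its main transcript has 3 exons and codes for 257 residues. By the authors' deposited table its log2 fold change was -1.01 (SE 0.23, adjusted p = 0.00215) in CTX over UT, which is 0.495 of the UT level (95% interval 0.363 to 0.674). By its p-value it ranked 73 among the 19260 genes tested in that comparison. In CAU over UT the authors' deposited table gives -1.31 (SE 0.23), which is 0.402 of the UT level (95% interval 0.293 to 0.553). This was the value that led to the choice of the family, and it ranked 3 among 19302 genes by p-value.

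Between the drug groups the difference in Cish was not resolved. CAU over CTX was at -0.31 (SE 0.19, adjusted p = 1.00) by the authors' deposited table, with a 95% interval from -0.68 to 0.07. The interval covers a level in CAU from 0.623 to 1.05 times that in CTX. The CTX and CAU values both use the same 3 UT libraries, so that they are not separate measurements of the UT level. Split by group, the error of Cish on the log2 scale was 0.187 for UT, 0.129 for CTX and 0.141 for CAU, where the squares of any 2 add up to the squared SE of their comparison.

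The genes beside Cish give its local context. Mapkapk3, a kinase gene that ends 6781 bases before Cish, was at -0.57 (SE 0.35) in CTX over UT and -0.72 (SE 0.40) in CAU over UT by the authors' deposited table, not called. Hemk1, a methyltransferase gene that starts 24297 bases after it, was at 0.08 (SE 0.13) and 0.06 (SE 0.15) by the authors' deposited table, not called either. A GENCODE pseudogene and an antisense gene on the other strand overlap Cish, and neither is among the genes of the deposited table. The strand setting of the counting is not given in the sources used here. Whether their reads were kept apart from those of Cish is therefore not known.

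**Figure D1:**
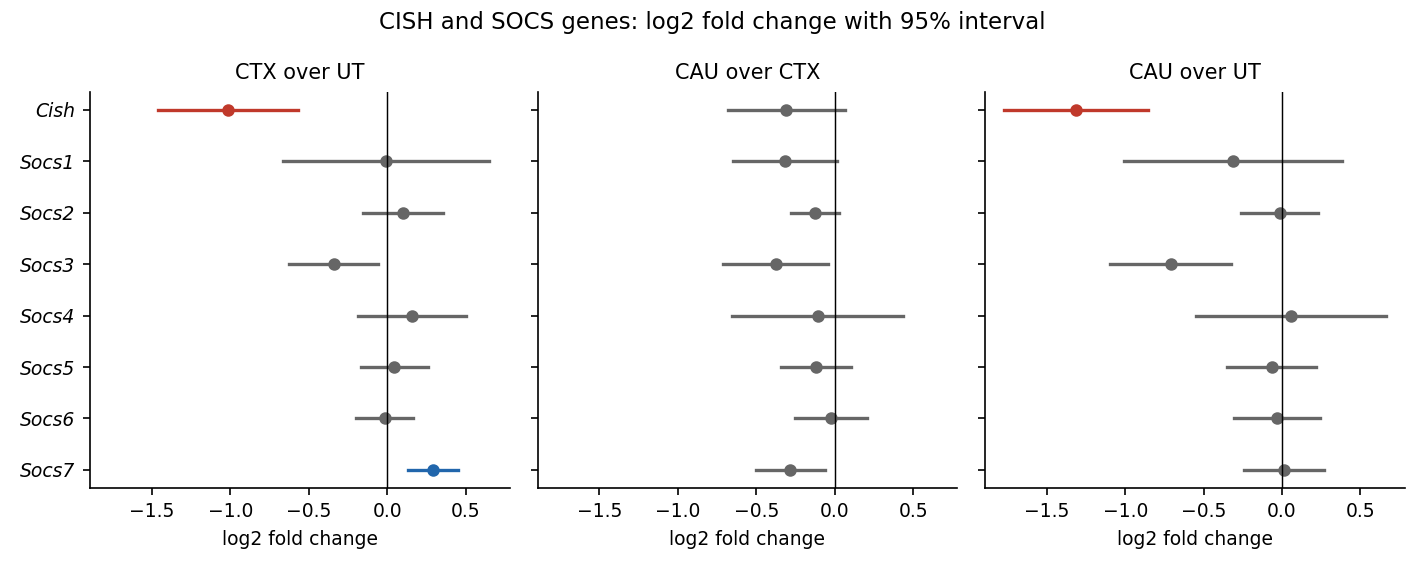
Log2 fold changes of the 8 members (points) with 95% intervals from the implied SE (lines), 1 panel per comparison; red marks genes called lower, blue genes called higher and grey genes not called. Cish at -1.01 and -1.31 is the lowest member in CTX over UT and in CAU over UT. In CAU over CTX all 8 points lie left of 0, but 6 of the 8 intervals span 0 and none is called.

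Socs3 encodes the inhibitor that binds gp130 and related receptors and restrains STAT3 signalling by the IL-6 family. It lies on chromosome 11, from 117966079 to 117970336 on the minus strand, has 2 exons and codes for 225 residues. In CTX over UT the authors' deposited table has Socs3 at -0.34 (SE 0.14, adjusted p = 0.317). It gives -0.38 (SE 0.17, adjusted p = 0.756) in CAU over CTX and -0.71 (SE 0.20, adjusted p = 0.201) in CAU over UT, again from the authors' deposited table. The 95% intervals of all 3 lie below 0, and none of the 3 passed after adjustment over all genes. The 95% interval in CAU over UT was 0.468 to 0.797 of the UT level, and Socs3 ranked 27 by p-value. With z values scaled to a spread of 1, an alternative described in the closing section, Socs3 was called in this comparison (adjusted p = 0.000229).

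Socs7 is among the less studied members, with a long N-terminal part ahead of its SH2 domain. It lies on chromosome 11, from 97362292 to 97398542 on the plus strand, and its 10 exons code for 579 residues, the longest protein of the family. By the authors' deposited table it was at 0.29 (SE 0.08, adjusted p = 0.0324) in CTX over UT, 1.22 times the UT level (95% interval 1.09 to 1.37). CAU over CTX was at -0.28 (SE 0.11, adjusted p = 0.532) by the authors' deposited table, with a 95% interval below 0 but no call. Against UT, CAU was at 0.01 (SE 0.13) by the authors' deposited table, with an interval from -0.24 to 0.27. At a threshold of 0.01 Socs7 was not called in CTX over UT.

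Socs1, the inhibitor of JAK kinases best known for restraining interferon signalling, had the largest SE of the family in CTX over UT and in CAU over UT. It lies on chromosome 16, from 10783808 to 10785536 on the minus strand, and codes for 212 residues. The authors' deposited table gives -0.0070 (SE 0.33) in CTX over UT, so that a level between 0.631 and 1.57 times that of UT is covered by the 95% interval. In CAU over CTX it was at -0.31 (SE 0.17) and in CAU over UT at -0.31 (SE 0.35) by the authors' deposited table. Split by group in the same way, its error was 0.323 for UT, 0.0871 for CTX and 0.145 for CAU.

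Socs2, the main brake on growth hormone signalling through STAT5, did not follow Cish in size. It lies on chromosome 10, from 95383903 to 95417321 on the minus strand, and codes for 198 residues, the shortest protein of the family. Its log2 fold changes by the authors' deposited table were 0.10 (SE 0.13) in CTX over UT, -0.12 (SE 0.08) in CAU over CTX and -0.016 (SE 0.13) in CAU over UT. The 95% interval in CAU over UT runs from -0.26 to 0.23, which does not reach the -0.86 at which the interval of Cish ends. The difference between the 2 genes was not itself tested.

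Socs4 and Socs5 are the members linked to receptors of the epidermal growth factor family, and Socs6 is linked to receptor tyrosine kinases such as KIT, which oocytes carry. Socs4, on chromosome 14 from 47276920 to 47296102, was at 0.16 (SE 0.18), -0.11 (SE 0.28) and 0.06 (SE 0.31) in CTX over UT, CAU over CTX and CAU over UT by the authors' deposited table. Socs5, on chromosome 17 from 87107278 to 87137647, was at 0.05 (SE 0.11), -0.12 (SE 0.11) and -0.07 (SE 0.14) in the same order by the authors' deposited table. Socs6 was at -0.017 (SE 0.09), -0.022 (SE 0.12) and -0.031 (SE 0.14) by the authors' deposited table. The intervals of these genes all spanned 0. Socs6 was measured tightly enough that its 95% interval in CTX over UT runs only from 0.871 to 1.12 times the UT level.

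Counted over the family, 1 member was called lower and 1 higher in CTX over UT, where 1.29% of all genes were called, 0.820% lower and 0.472% higher. In CAU over UT 1 member was called, against 0.0518% of all genes in either direction and 0.0207% lower. In CAU over CTX none was called by DESeq2, against 0.442% of all genes. At an unadjusted p under 0.05 there were 3 members in CTX over UT (10.2% of all genes), 2 in CAU over CTX (5.36%) and 2 in CAU over UT (3.46%). Since Cish was chosen for its call in CAU over UT, nothing is read from these counts.

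The order of the members differed between comparisons. In CTX over UT the members ran from -1.01 for Cish and -0.34 for Socs3 up to 0.29 for Socs7, with 4 negative and 4 positive and a median of 0.02 beside -0.03 over all genes. In CAU over CTX all 8 were negative, from -0.38 for Socs3 to -0.022 for Socs6. None was called there, and 6 of the 8 intervals spanned 0. The median in CAU over CTX was -0.20 beside 0.0040 over all genes, of which 47.7% were negative. In CAU over UT 6 were negative, with a median of -0.05 beside -0.0087 over all genes. Leaving out Cish and Socs3, the other 6 members lay between -0.31 and 0.06 there, and the intervals of these 6 all spanned 0. Neighbours among these 6 differed by less than the larger of their SEs.

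**Figure D2:**
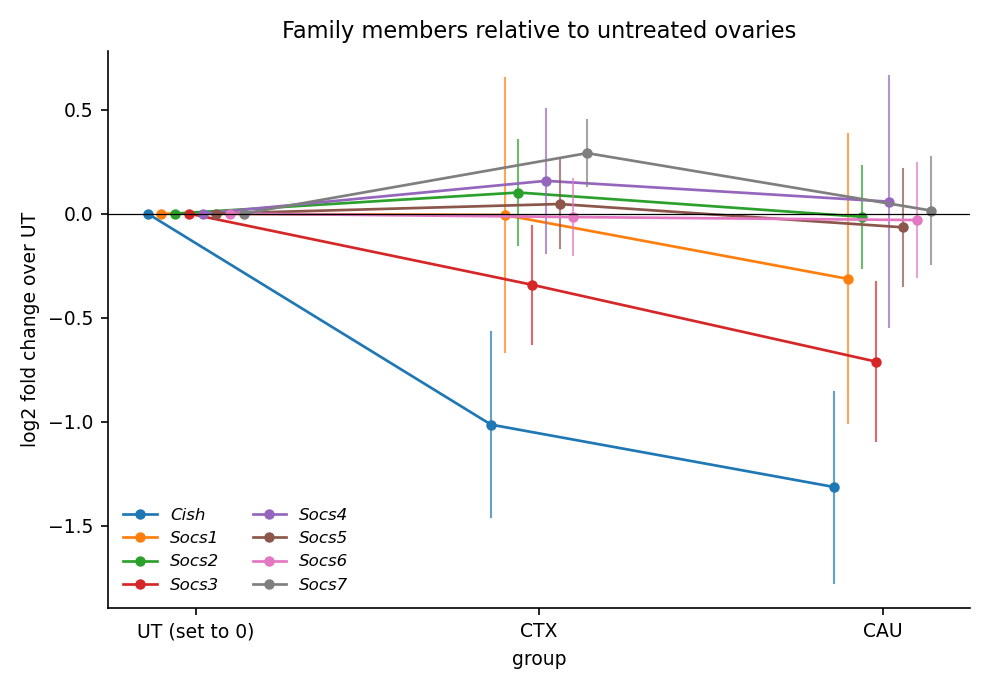
Log2 fold change over UT (vertical axis) of each member in the CTX and CAU groups, with UT set to 0 and 95% intervals as vertical lines; points are shifted sideways for legibility. Cish and Socs3 lie below 0 in both groups with intervals that do not reach 0, and Socs7 lies above 0 in CTX and near 0 in CAU.

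The genes whose pattern was most like that of Cish were sought over the 3 groups, by the distance of their log2 fold changes in CTX over UT and CAU over UT from those of Cish. Among 10660 genes with both SEs at or under 0.3, Csf2rb2, which encodes a beta chain of the IL-3 receptor, was nearest, at a distance of 0.369. By the authors' deposited table it was at -1.01 (SE 0.27) in CTX over UT and -0.95 (SE 0.30) in CAU over UT. It is a close copy of Csf2rb, so reads may have been divided between them. Next among the genes within the SE limit came Pctp, a phosphatidylcholine transfer protein gene, at 0.489 and the synaptotagmin gene Syt15 at 0.502. Genes with an SE just over the limit were not ranked. The Notch-modifying glycosyltransferase gene Mfng followed at 0.521 and the leukocyte GTPase gene Rac2 at 0.532. Cish was the only gene of this set at or below -1 in both comparisons. Outside the set, with an SE just over the limit, other genes were also below -1 in both. Csf2rb was at -1.35 (SE 0.313) in CTX over UT and -1.004 (SE 0.303) in CAU over UT by the authors' deposited table. The macrophage marker gene Cx3cr1 was at -1.42 (SE 0.301) and -1.11 (SE 0.280) in the same order by the authors' deposited table. With distances on z values, 0 of these 5 genes were among the 5 nearest, which then included Il10ra, Vwf, Fgf2 and Fcgrt.

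**Figure D3:**
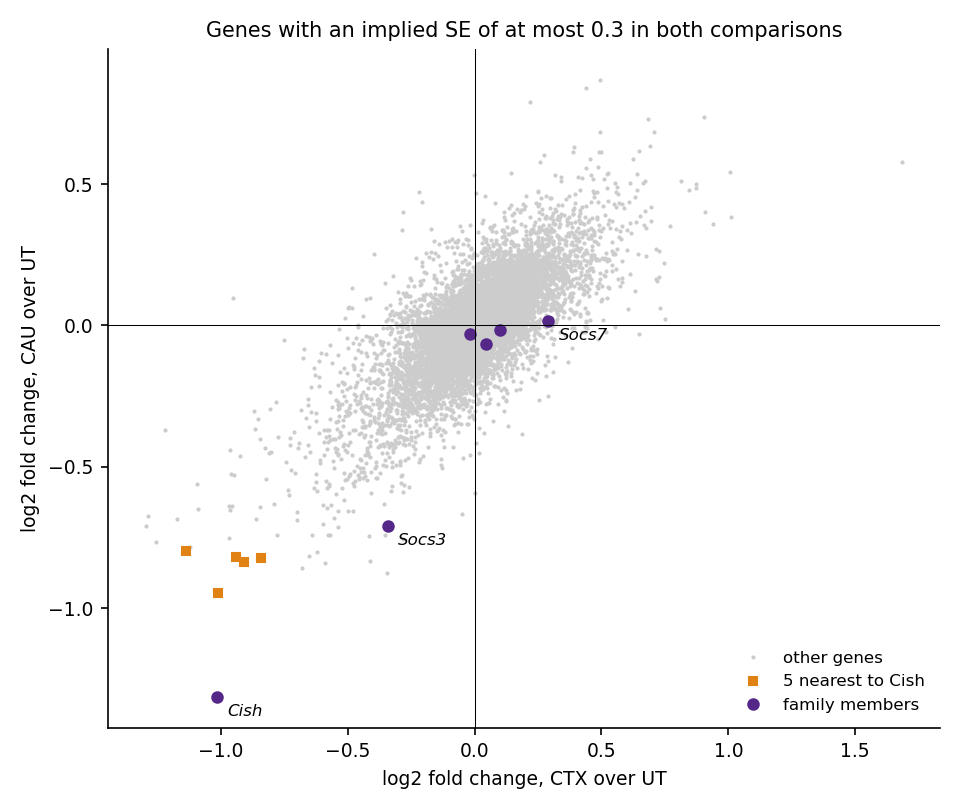
Log2 fold change in CTX over UT (horizontal) against CAU over UT (vertical) for genes with both implied SEs at or under 0.3; the 2 comparisons share the UT libraries. Purple points are the 6 members within the limit, orange squares the 5 genes nearest to Cish; Cish lies lowest, at -1.01 and -1.31.

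Receptors that the family acts on were lower in CTX ovaries where they were called. Of 34 type I and type II cytokine receptor genes, 5 fell and none rose in CTX over UT (median -0.30), and none was called in CAU over CTX (median 0.0054) or CAU over UT (median -0.18). At an unadjusted p under 0.05, 10 were lower in CTX over UT and 8 were lower in CAU over UT, while in CAU over CTX 4 were higher and 2 lower. Over all genes, 0.820% were called lower and 0.472% higher in CTX over UT. In CAU over CTX 0.442% and in CAU over UT 0.0518% of all genes were called. At an unadjusted p under 0.05 the shares were 10.2% in CTX over UT, 5.36% in CAU over CTX and 3.46% in CAU over UT. The counts of the lists below are to be set beside these same shares. Il2rb, a chain of the IL-2 and IL-15 receptors that signals through STAT5, was at -1.39 (SE 0.23, adjusted p = 1.17e-06) in CTX over UT by the authors' deposited table. Csf2rb, the common beta chain of the GM-CSF, IL-3 and IL-5 receptors, was at -1.35 (SE 0.31, adjusted p = 0.00356) by the authors' deposited table. The IL-10 receptor gene Il10ra was at -1.12 (SE 0.22, adjusted p = 0.000154) by the authors' deposited table, and the oncostatin M receptor gene Osmr, which is also in the list of STAT3 targets, at -0.73 (SE 0.20, adjusted p = 0.0252). Csf2rb2 was the remaining called receptor.

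None of these receptors was called in CAU over UT. Il2rb was at -0.33 (SE 0.38) and Il10ra at -0.78 (SE 0.23) by the authors' deposited table, while Osmr was at -0.60 (SE 0.22) and Csf2rb at 0.499 of the UT level. Of 28 ligand genes, 23 were measured, and Prl and Gh, which encode prolactin and growth hormone, were not among them. No ligand was called in any comparison, with 1, 0 and 0 at an unadjusted p under 0.05, and the medians were -0.59 in CTX over UT, 0.38 in CAU over CTX and -0.10 in CAU over UT. The median SE of the ligands was 1.03, 1.18 and 1.14 in the same order, so most were measured too loosely for a call or for a reading of these medians.

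Among the kinases and factors between receptor and target, 1 JAK gene and 1 STAT gene fell in CTX over UT and none rose. Jak3, the kinase that pairs with the common gamma chain, was at -0.32 (SE 0.09, adjusted p = 0.0376) and Stat3 at -0.38 (SE 0.11, adjusted p = 0.0320) by the authors' deposited table. Jak1, the kinase of gp130 and interferon receptors among others, was positive at 0.37 (SE 0.11, adjusted p = 0.0675) by the authors' deposited table, not called. At an unadjusted p under 0.05, 1 JAK gene was higher and 1 lower in CTX over UT, with 1 STAT gene lower. In CAU over UT the authors' deposited table gives -0.42 (SE 0.13) for Jak3 and -0.37 (SE 0.13) for Stat3, not called. Stat5b was at 0.07 (SE 0.13) in CTX over UT and -0.04 (SE 0.15) in CAU over UT by the authors' deposited table. None of the 4 JAK or 6 listed STAT genes was called in CAU over CTX or CAU over UT. At an unadjusted p under 0.05 there were 0 and 1 JAK genes and 0 and 1 STAT genes in these comparisons.

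Of 15 other inhibitors of the pathway, 1 fell in CTX over UT, the leukocyte phosphatase gene Ptprc, at -1.46 (SE 0.33, adjusted p = 0.00308) by the authors' deposited table. The list had a median of 0.0072 in CTX over UT and -0.03 in CAU over UT. None of 9 measured partners of the SOCS box, such as the elongin gene Eloc at 0.02 (SE 0.10) in CTX over UT by the authors' deposited table, was called in any comparison. At an unadjusted p under 0.05 there were 1, 0 and 1 of these partners in CTX over UT, CAU over CTX and CAU over UT, and all 3 medians lay between -0.02 and 0.

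No other listed target of STAT5 was called. Of 22 genes listed, Cish and the SOCS genes left out, 20 were measured and none was called in any comparison, with 5, 6 and 1 at an unadjusted p under 0.05. Over all genes, 1.29%, 0.442% and 0.0518% were called in CTX over UT, CAU over CTX and CAU over UT, so no contrast with Cish is read from this. At an unadjusted p under 0.05 the shares over all genes were 10.2%, 5.36% and 3.46%. The median SE of the list was 0.31, 0.28 and 0.34 in the same order. Their medians were -0.19 in CTX over UT, 0.11 in CAU over CTX and 0.07 in CAU over UT. Pim1, a kinase gene induced by STAT5, was at -0.37 (SE 0.17) in CTX over UT and -0.29 (SE 0.14) in CAU over UT by the authors' deposited table. Igf1 was at 0.02 (SE 0.19) and -0.17 (SE 0.20), and the cyclin gene Ccnd2 at 0.31 (SE 0.09) and -0.07 (SE 0.15), in the same comparisons by the authors' deposited table.

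Some targets of STAT3 fell in CTX ovaries. Of 16 STAT3 targets, 2 fell in CTX over UT (median -0.37), Osmr and the transcription factor gene Cebpd at -0.76 (SE 0.21, adjusted p = 0.0273) by the authors' deposited table. The median of the list was -0.30 in CAU over UT and 0.04 in CAU over CTX, with no call in either. At an unadjusted p under 0.05, 8 of the 16 were lower in CTX over UT and 3 were lower in CAU over UT, with none higher in these, while in CAU over CTX 1 was higher and 2 were lower.

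Markers of leukocytes, which use these pathways, moved in the same comparisons, and in bulk tissue fewer cells of a type cannot be told apart from less RNA per cell. Of 15 macrophage markers, 7 fell in CTX over UT, where 0.820% of all genes were called lower, and all 15 were negative (median -1.09). Of the 15, 14 were negative in CAU over UT (median -0.53), with none called and 6 at an unadjusted p under 0.05. The macrophage receptor gene Csf1r was at -1.29 (SE 0.18), 0.61 (SE 0.17) and -0.67 (SE 0.21) in CTX over UT, CAU over CTX and CAU over UT by the authors' deposited table. Of 13 measured T and NK cell markers, 2 fell in CTX over UT (median -1.60) and 3 rose in CAU over CTX (median 1.10), and in CAU over UT the median was -0.09. The median SE of this list was 1.01, 1.08 and 0.91 in the same order, so these medians are loosely measured. The called markers were Ncr1 and Gzma, with Gzmb in CAU over CTX only. No other marker of the list, T cell markers included, was called. Ncr1, a receptor of NK cells, was at -3.21 (SE 0.70) in CTX over UT and -0.07 (SE 0.48) in CAU over UT by the authors' deposited table. The macrophage list had a median of 0.40 in CAU over CTX, where 2 markers rose. Cish was at -0.31 (SE 0.19) there, not called and with an interval that spanned 0. The summed level of these markers in each group is not known here, and their part in the values of Cish and Socs3 was not tested.

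A further pair of lists bears on where Cish and Socs3 are known to be expressed. Of 11 luteal cell markers, none was called in any comparison, with 0, 2 and 0 at an unadjusted p under 0.05 and medians of 0.16, 0.06 and 0.04 in CTX over UT, CAU over CTX and CAU over UT. The median SE of these markers was 0.59, 0.22 and 0.65 in the same order, so sizeable changes against UT could have gone uncalled. The steroid synthesis gene Hsd3b1, with the smallest SE of the list in CTX over UT, was at 0.55 (SE 0.28) there by the authors' deposited table. Of 17 immediate early genes, to which Socs3 is often counted, 1 was called, Nab2, a repressor of EGR factors, at -0.46 (SE 0.10, adjusted p = 0.00726) in CAU over UT by the authors' deposited table. In CTX over UT, CAU over CTX and CAU over UT 8, 3 and 3 of the list had an unadjusted p under 0.05. The medians of that list were -0.27, 0.05 and -0.17 in the same order, and its part in the values of Socs3 was not tested.

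**Figure D4:**
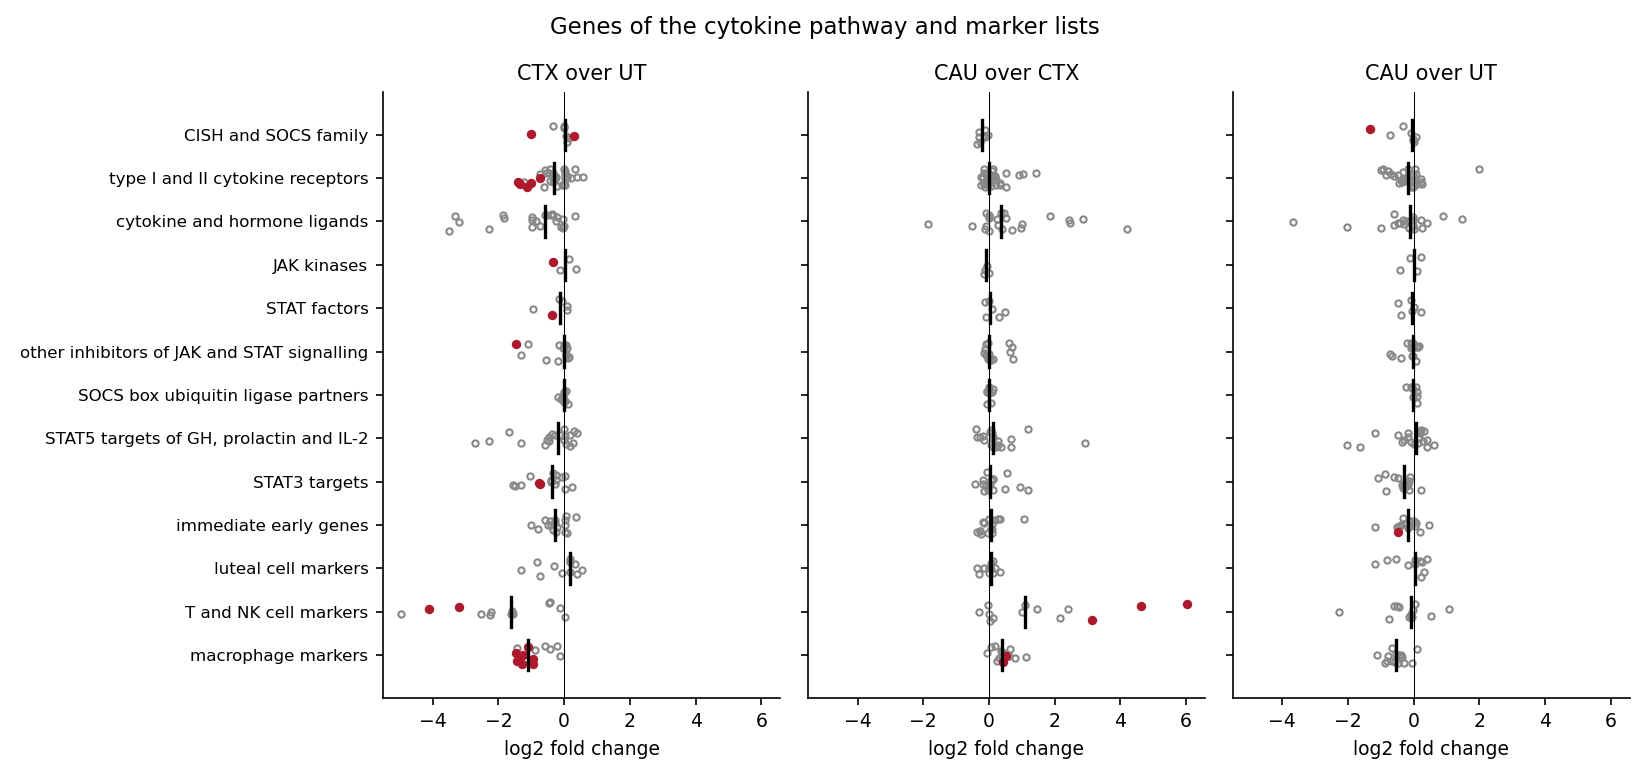
Log2 fold changes of single genes (points) in the family, in 9 lists of cytokine pathway genes and immediate early genes, and in 3 lists of cell markers, 1 panel per comparison; filled red points are called genes, open points genes not called, and black bars list medians. The medians of the macrophage and the T and NK cell lists lie at -1.09 and -1.60 in CTX over UT, against 0.02 for the family. The median SEs of these 3 lists there are 0.24, 1.01 and 0.14.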

How the data were processed

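RNA-seq of 9 ovarian samples in 3 labelled groups of 3 was used through the deposited table of comparisons alone. HISAT2, Bowtie2, RSEM 1.3.1, DESeq2 1.44.0 and GRCm38.p6 are named, without roles, per the submitters' processing notes. The log2 fold changes were computed by the authors and, per the file headers, come with DESeq2 p-values and q-values. Each deposited q-value, called adjusted p here, lay within 7.74e-05 of a Benjamini-Hochberg adjustment. Between 215 and 272 genes were blank in a comparison and left out. Depth is unknown, so no interval rests on counts.

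The planned tests per library were replaced by these values. The implied SE is the absolute log2 fold change over the absolute z of its p-value, and intervals are normal at 95%. The split of SEs by group assumes a common error model. In 18772 of 18773 genes the sum of the first 2 comparisons differed from CAU over UT by a constant, to within 0.01. Members and lists were chosen with earlier results of these data known, and some listed genes are not reported here. All members, the 5 genes nearest to Cish and its neighbours were named, and of each list up to 4 called genes or the gene with the smallest SE. Jak1 and Cx3cr1 were named after their values were seen. Positions come from RefSeq, where all 8 members matched by Entrez number, and GENCODE M21. Alternatives were other thresholds, centring, an SE limit of 1, scaled z values and distances on z. The code was tested on simulated data, with Python 3.11.15 and its packages scipy 1.17.1, numpy 2.4.6, matplotlib 3.10.9 and pandas 2.3.3.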

Additional observations from a re-analysis of the deposited data

How the results depend on the processing

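Of 72 recomputed values of single members, 69 kept their sign and their side of the threshold. After centring on the median gene, Socs1 and Socs6 turned in CTX over UT to 0.018 and 0.0082, neither called. With z scaled to a spread of 1, Socs3 in CAU over UT was called at the same -0.71 (adjusted p = 0.000229), so that 2 members were called in place of 1. The deposited z values of that comparison had a spread of 0.711, and the scaling raised the calls over all genes from 10 to 257. At a threshold of 0.01, 1 member was called in CTX over UT in place of 2. Cish was called in CTX over UT and in CAU over UT under all 5 alternatives and in CAU over CTX under none. With distances on z values, 0 of the 5 genes nearest to Cish were shared. Centring moved the split of all calls in CTX over UT from 91 higher and 158 lower to 156 higher and 134 lower. No paired analysis was possible because the table holds no values per library, and for the same reason no replicate could be left out in turn.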
